A study of Mus musculus with 10 samples.

Results

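Selp, Sele, Vcam1, Icam1, Icam2, Pecam1, Cdh5, Nos3 and Mcam are 9 of the 31053 genes counted in single cells of E0771 breast tumors, E0771 being a mouse mammary carcinoma line. They were chosen by name as the adhesion molecules of endothelial cells (ECs) together with the nitric oxide synthase of ECs, and their counts were followed by cell class and by genotype. The tumors grew for 21 days in the mammary fat pad, and the hosts were female C57BL/6 mice, 16 weeks old at injection. The EC-AGO1-KO mice (KO) carried AGO1 flox/flox alleles and the VE-Cadherin-Cre transgene, while their littermates served as wild type (WT). The Cre is driven by the promoter of Cdh5, which is itself 1 of the 9 genes, so the cells that were to lose AGO1 were those that had used that promoter. Of 10 libraries, batch 1 held 1 WT and 1 KO library (WT B1 and KO B1), and batch 2 held 4 of each (WT 1, 3, 4 and 5, KO 1, 2+3, 4 and 5+6), with 2 KO tumors pooled in each of KO 2+3 and KO 5+6. The libraries held 8323896 to 10591577 unique molecular identifiers (UMIs, each marking 1 captured RNA molecule). Depth per cell differed by batch, with medians of 4049 and 3862 UMIs in batch 1 and of 595 to 1142 in batch 2. The share of UMIs taken by Actb differed too, at 1.75% and 1.97% in batch 1 and 10.0% to 17.8% in batch 2, and Actb was left out of every total. Tests of KO against WT were therefore made within batch or with batch as a term. Levels by cell class were summed over both batches unless a batch is named, so they hold this difference. Pairs of libraries shared at most 28 cell barcodes, 0.503% of the smaller library.

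White blood cells leave the blood in steps that these genes carry out. The selectins Selp (P-selectin) and Sele (E-selectin) slow the cells on the vessel wall. Vcam1, Icam1 and Icam2 then bind leukocyte integrins and hold the cells firmly, and Pecam1 (CD31) helps them pass the junctions that Cdh5 (VE-cadherin) keeps closed. Mcam (CD146) is an adhesion molecule of ECs and pericytes, and Nos3 makes the nitric oxide that relaxes vessels. Inflammatory signals acting through NF-kB are known to induce Selp, Sele, Vcam1 and Icam1 in ECs. Pecam1 is also made by leukocytes and platelets, Vcam1 by some macrophages and stromal cells, and Icam1 by many cell types.

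In the mm10 annotation Sele (chr1:164048234-164057677) and Selp (chr1:164115264-164150026) lie on the plus strand of chromosome 1. Vcam1 lies at chr3:116109949-116129688 (minus strand), Icam1 at chr9:21015985-21028817 (plus), Icam2 at chr11:106377656-106388075 (minus) and Pecam1 at chr11:106654217-106750628 (minus). Cdh5 lies at chr8:104101625-104144511 (plus), Nos3 at chr5:24364810-24384474 (plus) and Mcam at chr9:44134469-44142727 (plus). Selp, Vcam1, Icam1, Cdh5, Nos3 and Mcam overlap annotated genes on the opposite strand, Atg9b at the 3′ end of Nos3 among them, and the strand setting of the counting is not given in the sources used here, so UMIs of such partners cannot be told apart from theirs.

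Promoter sequences are shown for the 2 selectins and Icam1, the inducible members with a matched promoter window. Each line gives the 250 bases before the RefSeq start (GRCm38.p6, plus strand, 5′ to 3′). Capitals mark every match, on either strand, to 2 NF-kB-type patterns that can overlap each other, the first being GGG and CC with any 5 bases between them and the second GGNNNTTCC.
Selp, chr1:164115014-164115263: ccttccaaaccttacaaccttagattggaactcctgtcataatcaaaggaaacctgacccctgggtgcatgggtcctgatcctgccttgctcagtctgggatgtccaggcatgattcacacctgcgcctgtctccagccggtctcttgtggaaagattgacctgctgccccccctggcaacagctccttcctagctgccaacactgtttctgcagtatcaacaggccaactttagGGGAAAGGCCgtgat
Sele, chr1:164047984-164048233: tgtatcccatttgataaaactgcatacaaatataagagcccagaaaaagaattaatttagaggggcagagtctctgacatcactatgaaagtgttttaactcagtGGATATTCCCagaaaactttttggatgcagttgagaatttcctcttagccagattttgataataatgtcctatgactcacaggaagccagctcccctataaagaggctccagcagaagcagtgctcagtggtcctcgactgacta
Icam1, chr9:21015690-21015939: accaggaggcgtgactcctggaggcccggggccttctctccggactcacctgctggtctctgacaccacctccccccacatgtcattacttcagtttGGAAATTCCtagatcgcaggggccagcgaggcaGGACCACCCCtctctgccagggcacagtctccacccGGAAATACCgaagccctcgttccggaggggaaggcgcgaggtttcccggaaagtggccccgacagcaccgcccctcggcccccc

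Selp held GGGAAAGGCC at -15 to -6, counted back from -1 as the last base before the start. Sele held GGATATTCCC at -145 to -136. Icam1 held GGAAATTCC at -153 to -145, GGACCACCCC at -120 to -111 and GGAAATACC at -84 to -76. Among 32851 promoters of the same length, 45.8% held the first pattern and 15.7% the second, so these matches are a description of the letters and not of a bound site. Such windows were matched for 4 of the 9 genes.

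A barcode counted as a cell when it had between 200 and 7000 genes and no more than 10% of its UMIs from mitochondrial genes, which left 65298. They were clustered without the 9 genes and named from marker genes that also excluded them, so a class owes its name to other genes. Of these cells, 190 were endothelial-like, 7 and 4 of them from WT B1 and KO B1 and 5 to 35 from each library of batch 2. In sum they held all 12 endothelial markers (Kdr, Flt1, Tek, Tie1, Egfl7, Emcn, Cldn5, Esam, Vwf, Plvap, Ptprb and Ecscr), with 249 UMIs in WT and 265 in KO, and their leading genes included Igfbp3, Igfbp7, Mecom, Cd93 and Fabp4. Of the 190 cells, 62 (32.6%) had 2 or more of these markers. An upper estimate of the share of free RNA in them, from the markers of other classes, was 100% in 7 of the 10 libraries, 99.4% in KO 1, 43.2% in WT 5 and 28.4% in WT 4, so it set no limit in most libraries. The macrophage genes C1qa, Csf1r and Adgre1, the T cell genes Cd3e and Trac, the pericyte genes Pdgfrb and Cspg4, the lymphatic gene Prox1 and every neutrophil and hemoglobin marker had no UMI. Other genes of the lymphatic list had 7 UMIs in WT and 19 in KO, of the pericyte list 11 and 31, and of the fibroblast list 19 and 30. The dendritic list had 51 and 73, with Flt3, Xcr1, Ccr7 and Cd209a at 0. The platelet list had 6 and 8, the myeloid list 1 and 2, and the T list 2 and 2. All 8 genes of the tumor list were detected in them, at 11418 CPM (counts scaled to 1000000 UMIs) in WT and 9541 in KO, and the part of these lists in the values below was not tested. The other classes were tumor-like (55661 cells), myeloid-like (2404), T-like (1439), dendritic-like (678), fibroblast-like (572), epithelial-like (442), B-like (344), pericyte-like (212) and 3356 unnamed cells. Pericyte-like, fibroblast-like and epithelial-like cells came only from batch 2.

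The floxed gene was looked at first. Ago1 (chr4:126435012-126468583) had 189 UMIs in all WT cells and 183 in all KO cells, or 4.97 to 7.21 CPM per WT library and 4.97 to 7.96 CPM per KO library. In endothelial-like cells Ago1 had no UMI in any library, WT included, which allows up to 53.2 CPM over the WT cells and 42.3 CPM over the KO cells (3 UMIs). At this depth a loss of Ago1 from ECs could not have been seen, and counts from the 3′ end would not check the deleted part.

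With both batches summed, 7 of the 9 genes had their highest CPM in endothelial-like cells, and Vcam1 and Icam1 did not. Within batch 2 alone 6 of the 7 did, without Mcam. For Sele, Icam2 and Nos3 this rested on 1, 1 and 2 UMIs. A high level in this small class did not mean that most molecules of a gene were counted there. Endothelial-like cells held 0.207% of all UMIs in cells and tumor-like cells 87.7%. Among the tumor-like cells, 164 (0.295%) had 2 or more endothelial markers, and these held 15 of the 59 Cdh5 UMIs of the class (25.4%), 22 of the 627 Pecam1 UMIs (3.51%) and 1 of the 19 Selp UMIs. Endothelial-like cells held 61.3% of the Cdh5 UMIs, 55.8% of the Selp UMIs and 38.0% of the Mcam UMIs. Their share was 27.8% for Sele, 23.9% for Icam2 and 8.30% for Pecam1, and it was 3.12% for Nos3, 2.26% for Vcam1 and 1.05% for Icam1. Since classes are clusters of the same cells, these are descriptions without a test, and the intervals given with pooled levels are 95% Poisson intervals that cover counting error only.

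**Figure D1:**
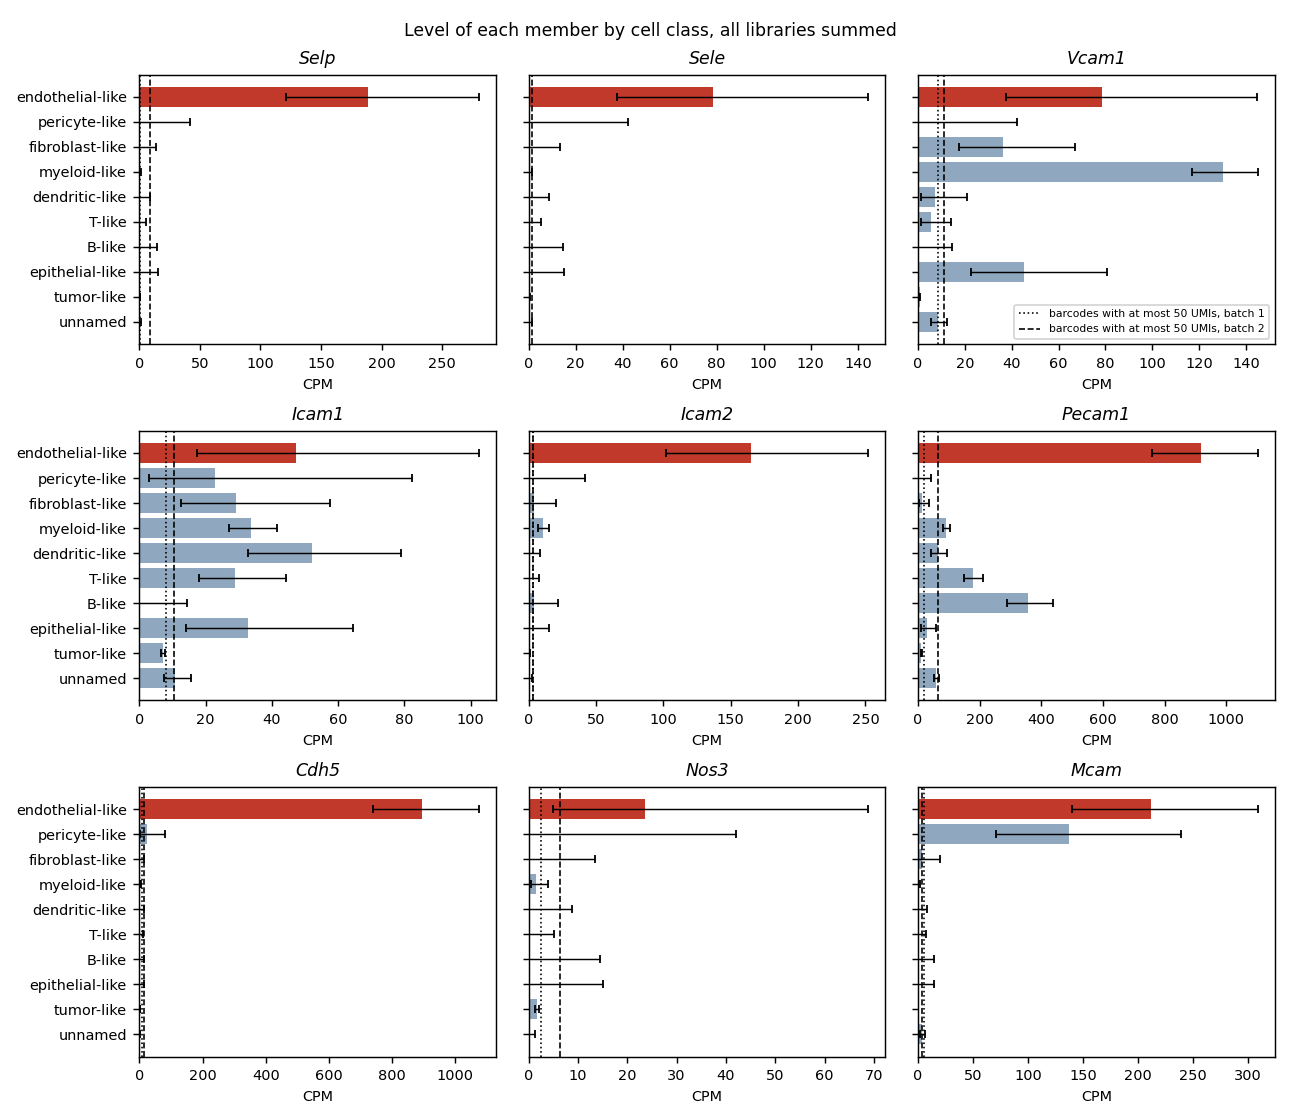
Level of each gene (CPM on the x axis, on its own scale per panel) in each cell class with all libraries summed, endothelial-like cells in red and the other classes in blue, with 95% Poisson intervals as bars, and with dotted and dashed lines for its level in barcodes with at most 50 UMIs of batch 1 and batch 2. Cdh5 (896 CPM), Selp (189 CPM) and Sele (78.6 CPM) stand out in endothelial-like cells, Vcam1 is highest in myeloid-like cells (130 CPM), and Pecam1 is also seen in B-like (358 CPM) and T-like (178 CPM) cells.

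The selectins were found in endothelial-like and tumor-like cells only, among the named classes and the unnamed cells. Selp, which anchors leukocyte PSGL-1 (Selplg), was at 189 CPM (interval 121 to 281, 24 UMIs) in endothelial-like cells and at 0.352 CPM (19 UMIs) in tumor-like cells. Its level in barcodes with at most 50 UMIs, which hold free RNA and debris rather than cells, was 8.86 CPM in batch 2, above its tumor-like level. Sele, made by inflamed ECs, was at 78.6 CPM (37.7 to 145, 10 UMIs) in endothelial-like cells and at 0.481 CPM (26 UMIs) in tumor-like cells. Most selectin UMIs of ECs came from 1 cell. A WT B1 cell with 2260 UMIs in all held 14 of the 24 Selp UMIs and 9 of the 10 Sele UMIs, next to 8 Pecam1, 6 Cdh5, 2 Icam1 and 1 Vcam1 UMIs. Outside that cell, 8 endothelial-like cells held the other 10 Selp UMIs and 1 cell the other Sele UMI.

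Of the immunoglobulin-type adhesion molecules, Vcam1 was mainly counted in myeloid-like cells when both batches were summed. Vcam1, a ligand of the integrin formed by Itga4 and Itgb1, was at 130 CPM (117 to 145) in myeloid-like cells, which held 337 of its 442 UMIs (76.2%). Endothelial-like cells had 78.6 CPM (37.7 to 145, 10 UMIs), epithelial-like cells 45.1 CPM (22.5 to 80.7), fibroblast-like cells 36.4 CPM (17.5 to 67.0) and tumor-like cells 0.796 CPM. The endothelial-like interval reached into that of the myeloid-like cells, so the order of these classes was not resolved by the counts. Pericyte-like and B-like cells had no Vcam1 UMI. Most Vcam1 UMIs in cells were from batch 1, with 176 in WT B1 and 130 in KO B1. Batch 2 held 68 in its WT and 68 in its KO libraries, so the 76.2% rests mostly on batch 1. A Vcam1 UMI was found in 16.9% of myeloid-like cells of batch 1 and 2.52% of those of batch 2. Within batch 2 the CPM was again highest in myeloid-like cells.

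Icam1, the ligand of the integrins LFA-1 and Mac-1, was spread over most classes. Dendritic-like cells had 52.2 CPM (32.7 to 79.0), endothelial-like cells 47.1 CPM (17.3 to 103, 6 UMIs), myeloid-like cells 33.6 CPM (26.9 to 41.5), epithelial-like cells 32.8 CPM (14.2 to 64.6), fibroblast-like cells 29.2 CPM (12.6 to 57.4), T-like cells 28.9 CPM (17.9 to 44.2) and pericyte-like cells 22.8 CPM (2.76 to 82.5). Neighbours in this order had overlapping intervals, and the order differed by batch. Within batch 2 Icam1 was highest in epithelial-like cells, and it was detected in 17.2% of the dendritic-like cells of batch 1 and 1.29% of those of batch 2. Tumor-like cells were lower at 7.11 CPM (6.42 to 7.86) but, being many, held 384 of the 569 Icam1 UMIs (67.5%). B-like cells had none.

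Icam2, a ligand of LFA-1 that resting ECs carry, was at 165 CPM (102 to 252, 21 UMIs) in endothelial-like cells. Myeloid-like cells followed at 10.4 CPM (6.88 to 15.2), with 26 of their 27 UMIs in batch 1. In endothelial-like cells too, 20 of the 21 UMIs were from batch 1, and 17 of them from WT B1 alone.

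Cdh5, the cadherin of endothelial junctions, was the member most closely tied to the class. It was at 896 CPM (739 to 1076, 114 UMIs) in endothelial-like cells, at 22.8 CPM in pericyte-like cells (2 UMIs), at 1.09 CPM in tumor-like cells (59 UMIs), and at no more than 2.76 CPM elsewhere. It was detected in 10 of 11 endothelial-like cells of batch 1 (median 3710 UMIs per cell) and in 35 of 179 cells of batch 2 (19.6%, median 435 UMIs), against 0.0698% of tumor-like cells of batch 2 (median 711 UMIs). With each cell thinned to 300 UMIs and shallower cells left out, 3 of 11 cells of batch 1 and 18 of 135 of batch 2 (13.3%, 44 cells left out) had a Cdh5 UMI, against 0.0218% of tumor-like cells of batch 2 (3929 left out).

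Pecam1, which ECs and leukocytes both carry, was highest in endothelial-like cells (919 CPM, 760 to 1102, 117 UMIs). B-like cells came next at 358 CPM (288 to 439, 91 UMIs), then T-like cells at 178 CPM (148 to 211), myeloid-like cells at 91.6 CPM (80.3 to 104), dendritic-like cells at 66.4 CPM (44.1 to 96.0) and unnamed cells at 59.7 CPM (51.0 to 69.4). The intervals of endothelial-like, B-like, T-like and myeloid-like cells did not overlap each other, whereas those of the myeloid-like, dendritic-like and unnamed cells did in part. Tumor-like cells had 11.6 CPM but 627 of the 1410 Pecam1 UMIs (44.5%). The level in barcodes with at most 50 UMIs of batch 2 was 65.7 CPM, so that values near it cannot be told apart from free RNA. In batch 2 a Pecam1 UMI was found in 22.3% of endothelial-like, 24.1% of B-like and 6.78% of T-like cells, against 0.967% of tumor-like cells. With each cell thinned to 300 UMIs, 19 of 135 endothelial-like cells (14.1%) and 31 of 220 B-like cells (14.1%) of batch 2 had one, so within batch 2 these shares did not set the classes apart.

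Mcam was at 212 CPM (140 to 309, 27 UMIs) in endothelial-like cells and at 137 CPM (70.8 to 239) in pericyte-like cells, where 12 cells held 1 UMI each. The batches differed in this order. Endothelial-like cells had 25 Mcam UMIs in batch 1 (671 CPM) and 2 in batch 2 (22.2 CPM), while all pericyte-like cells were from batch 2, so within batch 2 Mcam was highest in pericyte-like cells. Tumor-like cells had 0.352 CPM.

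Nos3, the enzyme that makes nitric oxide in ECs, was rarely counted. Endothelial-like cells held 3 of its 96 UMIs, at 23.6 CPM (4.86 to 68.9), and tumor-like cells held 89 (92.7%), close to their 87.7% of all UMIs, at 1.65 CPM (1.32 to 2.03). Of these 89, 60 were from batch 1, where tumor-like cells had 6.62 CPM in WT B1 and 3.86 CPM in KO B1. Tumor-like cells of batch 2 had 0.416 to 1.43 CPM per library. Barcodes with at most 50 UMIs had 2.56 CPM of Nos3 in batch 1 and 6.31 CPM in batch 2. The endothelial-like interval thus reached down to the free RNA level, and the class of origin of Nos3 was not settled at this depth.

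The genes most like each member were found over 47 clusters of at least 50 cells, among 12912 genes with at least 100 UMIs, by Pearson r of log2(CPM + 10), given without a p because clusters share libraries and depth. Notch4, a Notch receptor of ECs, ranked first for Selp (r = 0.95), Sele (0.90) and Cdh5 (0.87), and Plvap, the diaphragm protein of fenestrated ECs, was among the first 3 for all of them. Esam (0.91), Sparcl1 and Flt1 ranked first for Mcam, and Gm20532 (0.92), Notch4 and Ramp2 for Nos3. Vcam1 went with Itga9 (0.80), Abca1 and Selenop, Icam1 with Dusp1 (0.73), Flot2 and Hgf, Icam2 with Il31ra (0.77), Lxn and Lars2, and Pecam1 with Gm27201 (0.76), Elmo1 and Klhl6. Plvap, Esam, Flt1 and Emcn, the third gene for Cdh5, are among the endothelial markers, whereas none of the first 3 genes of Vcam1, Icam1, Icam2 or Pecam1 is.

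Whether the members differed between WT and KO in ECs was asked in the endothelial-like cells of each library. Across the libraries of batch 2, Cdh5 was at 373, 330, 406 and 241 CPM in WT 1, 3, 4 and 5 (mean 338 ± 71.3, SD, n = 4). In KO 1, 2+3, 4 and 5+6 it was at 809, 1019, 541 and 345 CPM (679 ± 296, n = 4). The libraries KO 1, 2+3 and 4 lay above every WT library and KO 5+6 within their range. These values rest on few UMIs, with a Cdh5 UMI in 35 of the 179 endothelial-like cells of batch 2. WT 4 had 5 such cells with 2464 UMIs in all, fewer than the 10 cells that the test below required. In batch 1 Cdh5 was at 1677 CPM in WT B1 and 2068 CPM in KO B1.

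Pecam1 went the other way in batch 2. It was at 870, 1155, 812 and 482 CPM in the WT libraries (830 ± 276, n = 4) and at 607, 510, 338 and 287 CPM in the KO libraries (435 ± 149, n = 4). WT 5 lay among the KO libraries. A Pecam1 UMI was found in 40 of the 179 endothelial-like cells of batch 2, and WT 4 had only 5 such cells. These values too rest on few UMIs. In batch 1 Pecam1 was at 1764 CPM in WT B1 and 1997 CPM in KO B1.

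Selp had no UMI in any WT library of batch 2 and at least 1 in each KO library. The KO libraries held 3, 1, 3 and 1 Selp UMIs, or 202, 102, 203 and 57.4 CPM (141 ± 73.3, n = 4). With 3 UMIs over the summed WT cells of batch 2 as the floor, an absence in WT allows up to 90.5 CPM. WT 5 held 16587 of the 33153 UMIs behind that floor, and without it the floor was 181 CPM, above the 141 CPM of the summed KO cells, so no lower bound on the difference holds without that library. Batch 1 went the other way, with 14 Selp UMIs (602 CPM) in WT B1, all in 1 cell, and 2 UMIs (143 CPM) in KO B1.

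The other members were too sparse in endothelial-like cells to compare. In batch 2 the WT and KO libraries together held 1 Sele UMI (KO 1), 1 Icam2 UMI (WT 4), 2 Nos3 UMIs (KO 2+3 and KO 5+6), 2 Mcam UMIs (WT 1 and WT 5), 2 Icam1 UMIs (WT 3 and KO 1) and 3 Vcam1 UMIs (WT 3, WT 5 and KO 1). In batch 1 WT B1 held 17 Mcam, 17 Icam2, 9 Sele, 4 Icam1, 1 Vcam1 and 1 Nos3 UMIs, and KO B1 held 8, 3, 0, 0, 6 and 0. Of the 190 endothelial-like cells, 103 (54.2%) had no UMI of any member.

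**Figure D2:**
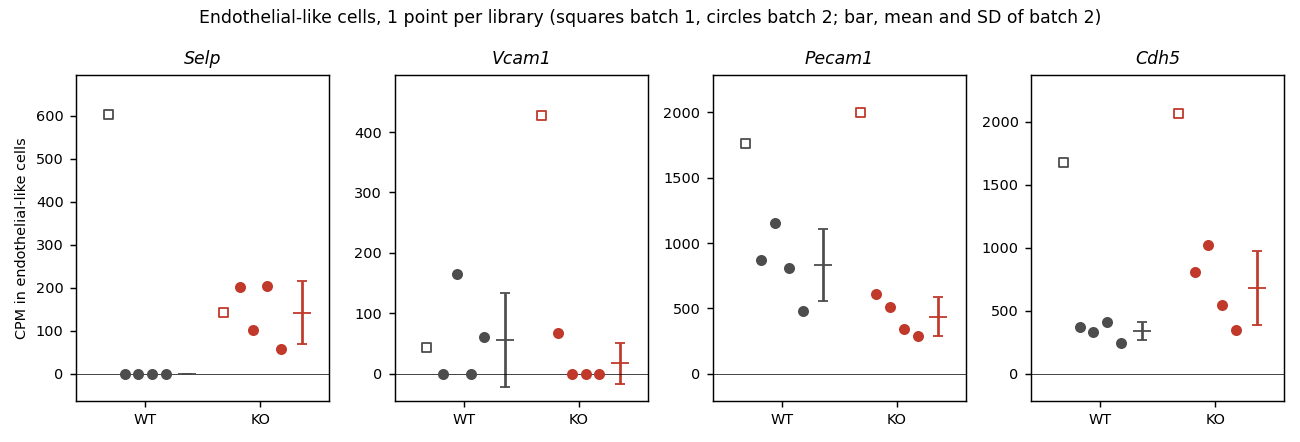
CPM of Selp, Vcam1, Pecam1 and Cdh5 (y axis) in the endothelial-like cells of each library, WT in grey and KO in red, squares for batch 1 and circles for batch 2, with the mean and SD of the 4 libraries per genotype of batch 2 as bars. Selp is at 0 in all 4 WT libraries of batch 2 and between 57.4 and 203 CPM in the KO libraries, and the WT and KO points of Vcam1, Pecam1 and Cdh5 overlap.

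A quasi-likelihood test in edgeR (adjusted by Benjamini-Hochberg over all genes tested) could use the libraries with at least 10 endothelial-like cells, which were 3 WT and 4 KO libraries of batch 2. No gene was called at an adjusted p under 0.05 among 273 tested (0.0%), with 22 at an unadjusted p under 0.05 and, by DESeq2, 0 called and 11 at an unadjusted p under 0.05. None of the 9 genes passed the filter on low counts. With no filter (9843 genes, 0 called, 0.0%), the log2 fold change of KO against WT was 3.98 for Selp (SE 1.67, adjusted p = 0.645), 1.29 for Cdh5 (SE 0.59, adjusted p = 0.645) and -0.58 for Pecam1 (SE 0.52, adjusted p = 0.645). For Selp the fitted value rests on a WT group at 0 and is no bound.

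Over all kept cells of a library the counts were larger, but a change in the number of cells of a class and in RNA per cell cannot be told apart there, and endothelial-like cells held only 8.30% of the Pecam1, 2.26% of the Vcam1 and 1.05% of the Icam1 UMIs. No gene was called among 14181 (0.0%), with 1314 at an unadjusted p under 0.05 and 2 called by DESeq2. Pecam1 had a log2 fold change of 0.54 (SE 0.22, adjusted p = 0.493). In batch 2 it was at 20.6, 17.3, 14.8 and 15.4 CPM in the WT libraries and at 16.1, 44.8, 30.0 and 21.9 CPM in the KO libraries, where KO 1 lay among the WT libraries. In batch 1 it was at 23.4 CPM in WT B1 and 27.9 CPM in KO B1. Without KO 2+3 the log2 fold change of Pecam1 was 0.30. That library had 531 T-like and 439 myeloid-like cells of 6591, against 47 to 118 T-like and 56 to 283 myeloid-like cells per WT library of batch 2, and the part of these cells in the Pecam1 sums was not tested.

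Cdh5 had a log2 fold change of 0.63 (SE 0.31, adjusted p = 0.558), with 1.43, 0.920, 0.891 and 1.62 CPM in the WT libraries of batch 2 and 3.32, 3.70, 2.21 and 1.62 CPM in the KO libraries. It ran from 0.46 without KO 2+3 to 1.02 without KO B1. Icam1 had 0.32 (SE 0.22, adjusted p = 0.684), Icam2 0.04 (SE 0.37, adjusted p = 0.986), Vcam1 -0.05 (SE 0.23, adjusted p = 0.972), Mcam -0.38 (SE 0.38, adjusted p = 0.813) and Nos3 -0.50 (SE 0.39, adjusted p = 0.728). Leaving out KO B1 moved Mcam to -0.0068 and Nos3 to -0.19, leaving out WT B1 moved them to -0.0080 and -0.19, and leaving out KO 2+3 moved Icam1 to 0.17. With batch as a term, a batch 1 library left alone does not inform the genotype term. The fits without WT B1 and without KO B1 are therefore not separate checks, here and below. Selp and Sele, with 43 and 36 UMIs, did not pass the filter.

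Most molecules of these genes in batch 2 were outside the kept cells, except those of Icam1. Kept cells held 71.7% of all UMIs of batch 2, but 15.5% of the Selp, 24.2% of the Cdh5, 25% of the Icam2, 26.4% of the Nos3, 29.6% of the Mcam, 30.8% of the Sele, 31.6% of the Vcam1, 35.4% of the Pecam1 and 59.2% of the Icam1 UMIs. In batch 1 kept cells held 80.8% of all UMIs and 72.4% to 100% of each member. The genes were therefore also summed over every barcode of a library, an alternative chosen after seeing the data, which includes free RNA and cells below the limits.

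**Figure D3:**
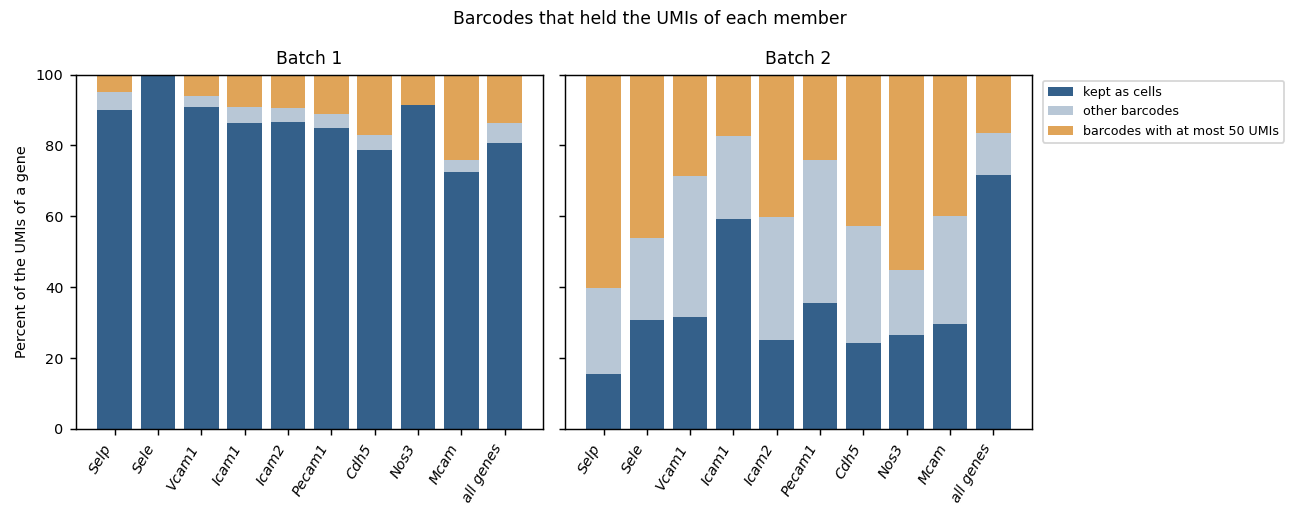
Percent of the UMIs of each gene, and of all genes, that were in kept cells (dark blue), in other barcodes (light blue) and in barcodes with at most 50 UMIs (orange), for batch 1 and batch 2. In batch 2 the kept share of every member, from 15.5% for Selp to 59.2% for Icam1, lies below the 71.7% of all genes.

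Over every barcode of batch 2, Selp was at 0.630, 2.71, 1.23 and 0.699 CPM in WT 1, 3, 4 and 5 (1.32 ± 0.967, SD, n = 4) and at 4.38, 2.82, 3.81 and 3.37 CPM in KO 1, 2+3, 4 and 5+6 (3.595 ± 0.663, n = 4). Every KO library was above every WT library, WT 3 (2.71) and KO 2+3 (2.82) lying closest. In batch 1 the order was the opposite, at 1.81 CPM in WT B1 (16 UMIs) and 0.490 CPM in KO B1 (4 UMIs).

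Cdh5 over every barcode was at 4.41, 6.16, 3.46 and 2.91 CPM in the WT libraries of batch 2 (4.24 ± 1.43, n = 4) and at 7.46, 7.44, 6.89 and 7.73 CPM in the KO libraries (7.38 ± 0.353, n = 4), again without overlap. In batch 1 it was at 7.58 CPM in WT B1 and 6.25 CPM in KO B1. Sele (0.247 to 0.525 CPM in WT and 0.623 to 1.07 in KO) and Icam2 (0.493 to 1.05 in WT and 1.18 to 3.08 in KO) did not overlap in batch 2 either, on 39 and 92 UMIs.

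Such separation was common. Among 16840 genes with at least 100 UMIs over every barcode of batch 2, 1127 (6.69%) had every KO library above every WT library and 94 (0.558%) the reverse. Of the 6 members with that many UMIs (Selp, Vcam1, Icam1, Pecam1, Cdh5 and Nos3), Selp and Cdh5 were above in KO and none was below. In kept cells 444 of 11940 genes (3.72%) had every KO library above and 67 (0.561%) every WT library, and none of the 3 members with at least 100 UMIs there. Icam2, with 23 UMIs in kept cells, had every KO library above every WT library. In barcodes with at most 50 UMIs these were 1316 (10.4%) and 281 (2.22%) of 12645 genes, and none of the 4 members with at least 100 UMIs. Selp in those barcodes, with 97 UMIs, was at 2.92 to 9.10 CPM in WT and 9.22 to 15.1 CPM in KO, and Nos3, with 69 UMIs, at 3.32 to 5.20 CPM in WT and 7.17 to 8.56 CPM in KO. All these shares cover genes with at least 100 UMIs. None was taken over sparser genes, so the separation of sparser members, Sele and Icam2 over every barcode included, has no such share beside it.

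**Figure D4:**
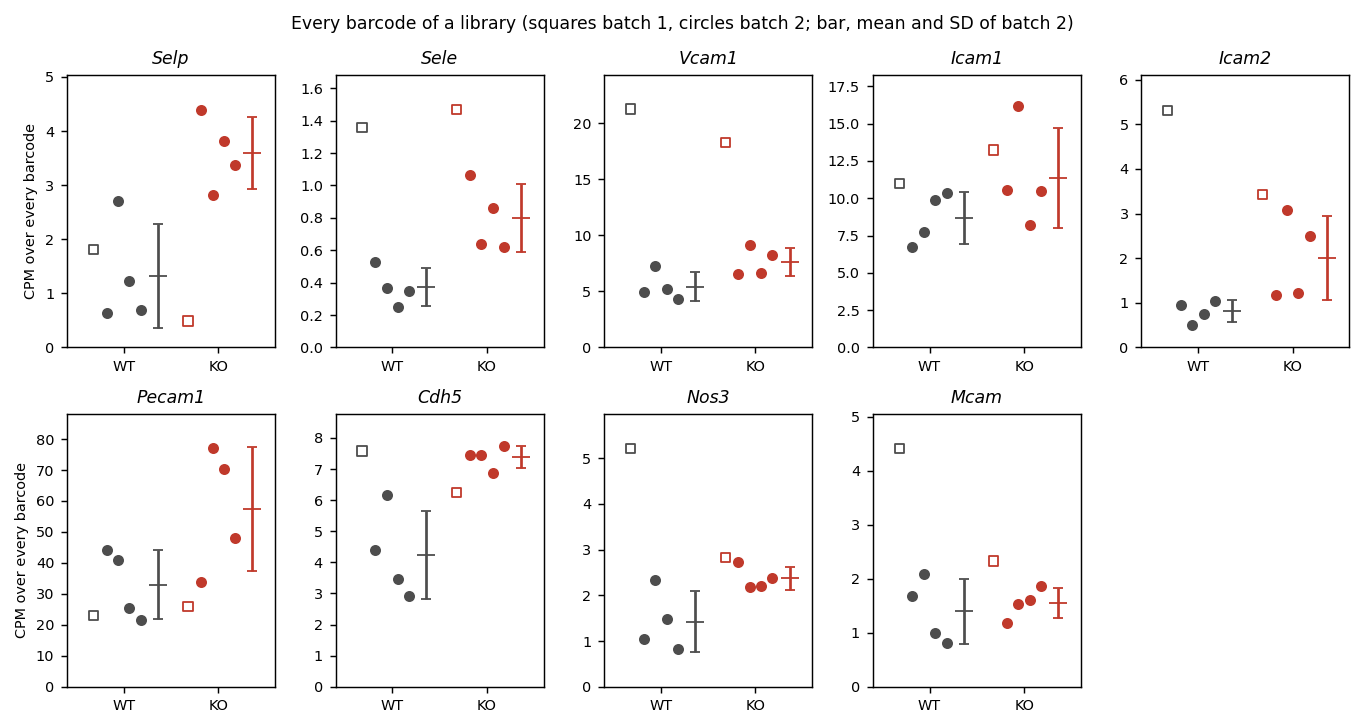
CPM of each gene over every barcode of a library (y axis, from 0), WT in grey and KO in red, squares for batch 1 and circles for batch 2, with the mean and SD of batch 2 as bars. The KO circles of Selp (2.82 to 4.38 CPM) and Cdh5 (6.89 to 7.73 CPM) lie above all WT circles, while for both genes the KO square of batch 1 lies below the WT square.

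With batch as a term, the fit over every barcode called none of 19764 genes (0.0%), with 4828 at an unadjusted p under 0.05. The log2 fold change was 0.81 for Selp (SE 0.41, adjusted p = 0.217), 0.60 for Sele (SE 0.41, adjusted p = 0.329), 0.51 for Pecam1 (SE 0.21, adjusted p = 0.166) and 0.41 for Cdh5 (SE 0.22, adjusted p = 0.237). It was 0.54 for Icam2, 0.19 for Icam1, 0.18 for Nos3, 0.16 for Vcam1 and -0.29 for Mcam. Within batch 2 (18030 genes, none called, 0.0%), Selp had 1.29 (SE 0.38, adjusted p = 0.123), Cdh5 0.63 (SE 0.24, adjusted p = 0.132), Pecam1 0.62 (SE 0.25, adjusted p = 0.138), Nos3 0.57 (SE 0.34, adjusted p = 0.262), Vcam1 0.31, Icam1 0.20 and Mcam -0.03. None of the members differed between genotypes at the threshold in any of these fits.

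The share of endothelial-like cells was compared as well. It was 0.586% in WT B1 and 0.177%, 0.151%, 0.0532% and 0.338% in WT 1, 3, 4 and 5 (0.261% ± 0.209, SD, n = 5). It was 0.413% in KO B1 and 0.407%, 0.349%, 0.429% and 0.485% in KO 1, 2+3, 4 and 5+6 (0.417% ± 0.0487, n = 5). The difference of 0.156 percentage points had p = 0.1 by permuting genotypes within batch (exact two-sided permutation test, 140 relabelings, smallest possible p 0.0143). Within batch 2 every KO library was above every WT library, by 0.238 points on average (exact permutation p = 0.0286, the smallest that 4 against 4 allows). Without WT B1 the difference was 0.237 points, where KO B1 is the only library left of batch 1 and its genotype is not permuted. The separation in batch 2 depended on the clustering. At resolution 2 WT 3 (0.629%) lay above KO 2+3 (0.561%), and with the members among the clustering genes WT 5 (0.563%) lay above KO 2+3 (0.531%) and KO 4 (0.512%). Of cells outside tumor-like clusters the difference was 0.894 points (exact permutation p = 0.143).

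Members carried by other classes were compared in those classes. In T-like cells Pecam1 was at 71.9, 162, 115, 85.6 and 137 CPM in WT B1, 1, 3, 4 and 5 and at 171, 140, 206, 245 and 338 CPM in KO B1, 1, 2+3, 4 and 5+6. The groups overlapped only through WT 1 and KO 1. Its log2 fold change was 0.87 (SE 0.35, adjusted p = 0.406), in a fit that called 8 of 1909 genes (0.419%), Pecam1 not among them. This class was added after its Pecam1 level was seen.

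In myeloid-like cells Pecam1 was at 70.7, 89.1, 148, 37.7 and 58.5 CPM in WT B1, 1, 3, 4 and 5 and at 61.0, 165, 320, 132 and 113 CPM in KO B1, 1, 2+3, 4 and 5+6, with a log2 fold change of 0.57 (SE 0.30, adjusted p = 0.842). KO 2+3 held 55 of its UMIs, and without that library the value was 0.14, while it was 1.19 without WT B1 and without KO B1. Vcam1 in myeloid-like cells was at 191 CPM in WT B1 and 121 CPM in KO B1, and in batch 2 at 57.0 to 80.4 CPM in WT and 46.6 to 113 CPM in KO. Its log2 fold change of -0.43 (SE 0.27, adjusted p = 0.894) came from batch 1, since without either library of that batch it was 0.06 and 0.07. Both of these fits estimate the genotype term from batch 2. None of 3118 genes was called (0.0%), with 182 at an unadjusted p under 0.05 and 0 called by DESeq2.

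In tumor-like cells 1 of 13103 genes was called (0.00763%) and no member. Icam1 was at 3.80 to 9.61 CPM in WT and 5.02 to 12.1 CPM in KO, with a log2 fold change of 0.20 (SE 0.26, adjusted p = 0.927), which was 0.011 without KO 2+3. Pecam1 was at 4.80 to 12.8 CPM in WT and 9.07 to 17.3 CPM in KO (0.25, SE 0.18, adjusted p = 0.839), and its value was 0.12 without WT B1 or KO B1. Nos3 had a log2 fold change of -0.56 (SE 0.39, adjusted p = 0.839), with the batch 1 libraries far above the rest in both genotypes. In pericyte-like cells (137 genes tested, 0 called, 0.0%) and fibroblast-like cells (701 tested, 2 called, 0.285%) no member passed the filter. Mcam in pericyte-like cells was at 90.3 to 221 CPM in the WT libraries and 0 to 274 CPM in the KO libraries, on 6 UMIs each.

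**Figure D5:**
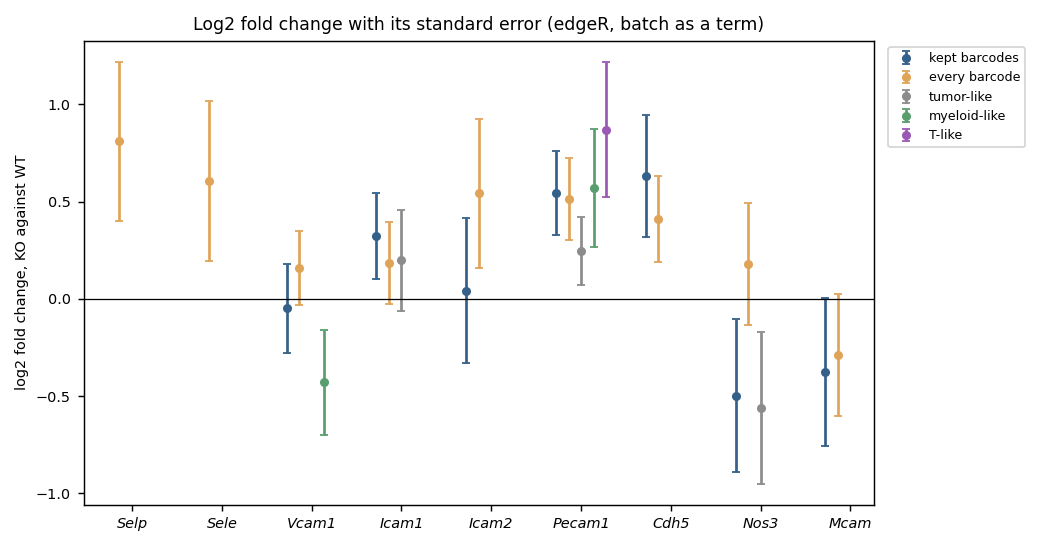
Log2 fold change of KO against WT (y axis, positive where KO was higher) with its standard error for each gene that passed the filter, in kept cells of a library, every barcode, and tumor-like, myeloid-like and T-like cells, from edgeR with batch as a term. Pecam1 lies above 0 in all 5 fits, from 0.25 to 0.87. These fits share UMIs, since the classes are part of the kept cells and the kept cells part of every barcode. They are therefore not separate results. Endothelial-like cells are not shown, because no member passed the filter there. With no filter, Pecam1 was below 0 in them. Vcam1 and Nos3 lie on different sides of 0 in different fits, and no value passed an adjusted p of 0.05.

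The partners of these molecules were counted in the same fits as 4 lists. In all cells none of their genes was called, against 0.0% of all genes. Of the leukocyte counter-receptors (12 of 13 tested) the median log2 fold change was 0.30, with 9 above 0. For the other endothelial and transmigration adhesion molecules (12 of 16) it was 0.13, with 9 above 0. The junction partners (8 of 10) had 0.01, with 4 above 0, and the nitric oxide pathway (14 of 18) 0.05, with 10 above 0. Over all genes the median was -0.004, with 49.3% above 0. The genes with the most UMIs were Itgb1, the integrin chain that binds Vcam1 (-0.14, adjusted p = 0.681), and Glg1, a ligand of E-selectin (-0.26, adjusted p = 0.496), then Pvr (0.02, adjusted p = 0.978) and Alcam (0.49, adjusted p = 0.494), the junction proteins Tjp1 (-0.32, adjusted p = 0.499) and Ctnna1 (-0.25, adjusted p = 0.530), and Hsp90ab1 (0.05, adjusted p = 0.930), a chaperone that binds nitric oxide synthase.

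In endothelial-like cells only Itgb1 (-0.63, SE 0.36, adjusted p = 0.659), Tjp1 (0.12, SE 0.41, adjusted p = 0.952) and Ctnna1 (0.34, SE 0.38, adjusted p = 0.895) of the listed genes could be tested. No listed gene was called in tumor-like, myeloid-like, pericyte-like, fibroblast-like or T-like cells. In myeloid-like cells Cd44, a ligand of E-selectin, had 0.01 (adjusted p = 0.998), Itgb1 -0.15 (adjusted p = 0.985) and Tjp1 -0.87 (adjusted p = 0.460). In pericyte-like cells Prkg1, the kinase that acts downstream of nitric oxide in muscle-type cells, had -0.13 (adjusted p = 0.941). In T-like cells Itgb1 had 0.14 (adjusted p = 0.937) and Alcam, the ligand of CD6, 0.35 (adjusted p = 0.852).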

How the data were processed

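The deposited files hold UMI counts for each gene in each barcode, which the authors made, per the labels, with Cell Ranger 7.1.0 on mm10. They include empty droplets and are not normalized. The study's own normalization, batch integration and cell annotation were not used here. Groups, batches and pooling were taken from the labels. Counts were used as deposited, and no column of per-sample values was left unused.

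The study's limits for cells were used, namely 200 to 7000 genes and up to 10% of UMIs from mitochondrial genes. Cells were clustered without Actb, Ago1, mitochondrial genes and the 9 members (scanpy 1.11.5, leidenalg 0.10.2, Python 3.11.15), on 2000 variable genes, 30 principal components and 15 neighbours, by Leiden at resolution 1. Of 18 clusters, 6 were clustered again, giving 55. Markers counted when 2-fold higher (20 CPM added) and in at least 2% of the cells of a cluster. Among lists with at least 3 such markers, a cluster took the name of the list with the largest share of its genes. It stayed unnamed if another list reached 0.75 of that share or had more genes among the 10 leading genes. Shallow clusters with no marker of the list among these stayed unnamed too. The tumor list was used last. An unnamed cluster that was not split again became tumor-like with at least 3 tumor markers raised against the named clusters. These limits were set after the clusters were seen. Doublets were not removed and no caller was run.

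UMIs were summed per library and class, and CPM used totals without Actb. Sums were compared with edgeR 4.0.16 (quasi-likelihood test, TMM, filterByExpr, batch as a term, Benjamini-Hochberg adjustment over all genes tested) in R 4.3.3, without libraries of fewer than 10 cells of a class, and with DESeq2 1.42.0 as an alternative. The paper tested cells, which are not replicates. Whether a library is 1 animal follows from the labels, except for the pooled libraries. The share of endothelial-like cells was compared by an exact permutation test within batch. On simulated data at the means and sizes of these sums, with genes made 4-fold higher, the test recovered 100% of 200 genes in all cells (14250 genes, 6 false calls), 98.1% of 54 in endothelial-like cells (314 genes, 2 false calls) and 100% of 200 in myeloid-like cells (3332 genes, 12 false calls). Smaller changes were not simulated. The spread between simulated libraries was a fixed setting and was not estimated from these data. Only genes that pass the filter on low counts were changed. No member passed that filter in endothelial-like cells, so the recovery there does not tell whether a change of a member would be found.

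The members, lists and tests were chosen with earlier results of these data known. The text names the 9 members in every comparison. From the 4 lists, the rule was to name called genes or else the 2 of each list with the most UMIs in the class. In classes other than endothelial-like cells only some of these genes, or none, are named. A gene that this rule names is not reported here. Alternatives covered the test, the filter, the libraries, the replicate number as a block, Actb in the totals, the mitochondrial limit, the clustering and free RNA. T-like cells, every barcode (with and without batch 1) and barcodes with at most 50 UMIs were added after seeing the data. Precision is limited by 0 to 41 UMIs of a member per library in endothelial-like cells, with the highest count in batch 1.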

Additional observations from a re-analysis of the deposited data

Results flagged for a closer look

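A library was set apart when its gap to the nearest library of its genotype took up more of the group's range than Dixon's 95% limit allows. This was tried for 49 groups of 4 or 5 libraries, each with at least 10 UMIs of the member, or the share of endothelial-like cells, and it set 18 libraries apart, where chance sets apart about 1 group in 20. All 18 were libraries of batch 1, of which each genotype has 1, so the library and the batch cannot be told apart.

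Over all kept cells, Vcam1 was at 24.4 CPM in WT B1 (others 2.01 to 3.37) and 19.9 CPM in KO B1 (others 2.39 to 4.44). Icam2 was at 5.54 CPM in WT B1 (others 0.184 to 0.430) and 3.83 CPM in KO B1 (others 0.498 to 0.741). Sele was at 1.66 CPM in WT B1 and 1.84 CPM in KO B1, and Nos3 at 5.82 CPM in WT B1 and 3.22 CPM in KO B1. In WT B1 Cdh5 was at 7.07 CPM (others 0.891 to 1.62) and Mcam at 3.88 CPM (others 0.356 to 0.736).

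By class, WT B1 stood apart in myeloid-like cells for Vcam1 at 191 CPM (others 57.0 to 80.4) and for Icam2 at 13.0 CPM (others 0). In tumor-like cells WT B1 was high for Nos3 at 6.62 CPM (others 0.450 to 1.43) and Icam2 at 1.82 CPM (others 0.191 to 0.474), and low for Pecam1 at 4.80 CPM (others 11.1 to 12.8). KO B1 was high there for Nos3 at 3.86 CPM (others 0.416 to 0.916), Sele at 2.32 CPM (others 0 to 0.416) and Mcam at 1.16 CPM (others 0.183 to 0.448).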

How the results depend on the processing

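No member was called in any setting. Of 249 alternative values for the 13 member values with a main fit, 232 kept their direction, 17 reversed and 0 were called. In all cells Vcam1 (-0.05 on the log2 scale) turned to 0.12 in batch 2 only, 0.16 over every barcode, 0.31 over every barcode of batch 2 and 0.70 in barcodes with at most 50 UMIs, and with 1 library left out it ran from -0.21 to 0.10, and was 0.10 without WT B1, 0.10 without KO B1, 0.0085 without WT 5 and -0.14 without WT 1. Icam2 (0.04) turned to -0.20 without the pooled KO libraries and ran from -0.075 to 0.70 with 1 left out, and was -0.075 without WT 3, -0.013 without WT 4, -0.069 without KO 2+3 and -0.028 without KO 5+6. Nos3 (-0.50) turned to 0.18 over every barcode, 0.57 there in batch 2 only and 0.46 in barcodes with at most 50 UMIs. Vcam1 in myeloid-like cells (-0.43) ran from -0.54 to 0.067, and was 0.065 without WT B1 and 0.067 without KO B1. The cause of these reversals was not tested. The fits without WT B1 and without KO B1 both take the genotype term from batch 2, so their reversals are not separate. The share of endothelial-like cells passed the threshold in batch 2 only (0.238 points) and without WT B1 (0.237), and ran from 0.104 to 0.237 points with 1 library left out.

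Counts of called genes moved more. In all cells they were 2 by DESeq2, 242 with no filter, 1 without the pooled KO libraries and 0 to 1 with 1 library left out. In endothelial-like cells they were 0 to 3 with 1 left out. In tumor-like cells (1) they were 39 with no filter and 0 by DESeq2, in batch 2 only or at resolution 2. In myeloid-like cells (0) they were 12 with no filter, 2 in batch 2 only and 0 to 2 with 1 left out. In pericyte-like cells (0) they were 1 without the pooled libraries and 1 at 20% mitochondrial UMIs. In fibroblast-like cells (2) they were 0 with no filter, without the pooled libraries and at 20%. In T-like cells (8) they were 1 by DESeq2, 2 with no filter, 0 without the pooled libraries, at resolution 0.5 or 2, at 20% or with the members among the clustering genes, and 0 to 17 with 1 left out.

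The deviations of libraries of the same number had correlations of mixed sign (-0.27, 0.37, -0.38 and 0.27). Whether such libraries share more than a number cannot be told from these values. With the replicate block in place of batch, Pecam1 in all cells had 0.48 and Cdh5 0.61, no member was called, and called genes numbered 0 in tumor-like and fibroblast-like cells and 5 in T-like cells.

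The share of a member's UMIs held by endothelial-like cells was lower in batch 2 only (Cdh5 49.5%, Selp 32%, Sele 8.33%, Mcam 6.90%, Pecam1 4.53% and Icam2 4.35%). It was higher with free RNA subtracted (Cdh5 96.3%, Selp 92.1%, Mcam 54.5%, Icam2 40.0% and Pecam1 18.4%). The free RNA level of Selp in batch 2 (8.86 CPM) was above its tumor-like level. Subtracting free RNA can then leave tumor-like cells with no UMI of a gene, which raises the endothelial-like share by construction. These higher shares therefore do not tell where the molecules came from. The number of members highest in endothelial-like cells was 6 in batch 2 only and with the members among the clustering genes. In batch 2 the 6 include Sele, Icam2 and Nos3, which had 1, 1 and 2 UMIs in these cells.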

Other observations

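The endothelial-like cells held genes of several vessel types, in sums that were not tested and include genes other cell types also make. The capillary list (Car4, Rgcc, Gpihbp1, Cd36 and Fabp4) was at 1119 to 3699 CPM per WT library and 2183 to 3058 CPM per KO library. The venous list (Ackr1, Nr2f2, Ephb4 and Vcan), veins being where selectins are chiefly made, was at 301 to 603 CPM in WT and 214 to 2956 CPM in KO. The tip cell list (Esm1, Apln, Angpt2, Pgf and Cxcr4) was at 0 to 660 CPM in WT and 57.4 to 3067 CPM in KO. The highest tip value was that of KO B1, which had 4 endothelial-like cells, and the highest venous value was that of KO 2+3. The WT and KO libraries overlapped for all 3 lists, for the venous list only through KO B1. The venous list had 24 UMIs in WT and 70 in KO. No share of such separation over other genes of these cells was taken, so it has nothing to be set against. A link of the venous list to Selp was not tested.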
